A study of Mus musculus with 2 samples.

Results

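The 10 genes described here are Dppa3 and 9 other genes of primordial germ cells (PGCs), namely Nanos3, Tfap2c, Prdm1, Kit, Lin28a, Lin28b, Sall4, Ifitm1 and Ifitm3. They were chosen by name as genes of this cell type. Earlier results of these data were known when they and the lists and markers below were chosen. Each of the 10 was found by its Ensembl ID among the 55416 genes of a table of read counts. The table came from bulk RNA-seq of 2 rhabdoid tumors (RT), aggressive tumors in which Smarcb1, part of the SWI/SNF complexes that remodel chromatin, is usually lost. The mice carried Cre recombinase as an IRES knock-in at Dppa3 (C57BL/6-Dppa3em1(IRES-Cre)Smoc) and a floxed Smarcb1 allele (Dppa3-cre::Smarcb1 Fl/+ in the study's methods, with the fl/fl strain named as the cross), so Cre was made wherever and whenever this locus was active. The first tumor was labelled intracranial, with the trigeminal nerve as its place. The second was labelled extracranial, facial and maxillar. Both were classified as MYC and taken once symptoms or growths were seen, and the ages of the mice are not stated. They are called the intracranial and the extracranial library below, after these labels.

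PGCs are the founders of the germ line. In the mouse they are set aside in the early embryo under BMP signals, when Prdm1, Prdm14 and Tfap2c silence the somatic program, and they then migrate to the gonads with the support of Kit and its ligand while their DNA methylation is erased. Dppa3 (also called Stella or PGC7) protects DNA from methylation by keeping Uhrf1 from its targets. Lin28 proteins block the maturation of let-7 microRNAs, Sall4 is a zinc finger factor of germ cells and pluripotent cells, Nanos3 is an RNA-binding protein that keeps PGCs alive, and Ifitm1 and Ifitm3 are interferon-inducible membrane proteins found on early PGCs.

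The libraries held 34545846 (intracranial) and 26915696 (extracranial) counts. Levels are given as CPM, the usual depth-scaled unit of read counts, after TMM scaling of the libraries, with exact Clopper-Pearson 95% intervals. The floor of 3 counts was 0.0863 CPM in the intracranial and 0.112 CPM in the extracranial library, and a count of 0 had an upper 95% limit of 0.106 and 0.138 CPM. There was 1 library per location, so no difference has a replicate check, and the intervals cover counting error only and compare 2 libraries, not 2 locations. The targeted gene Smarcb1 (ENSMUSG00000000902) had 365 and 530 counts, but the counts do not separate a deleted allele from an intact one, and no normal tissue was sequenced alongside. The Cre transgene was not counted, and Dppa3 counts do not separate the knock-in allele from the other.

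The intracranial library stood apart through epithelial genes. All 10 markers of stratified epithelium were higher there beyond 4-fold (background 5.41% of the 21977 genes tested). Their summed level was 22351.8 CPM against 9.01 CPM in the extracranial library. Krt13, a keratin of mucosal epithelium, had 366709 and 5 counts. Of 10 markers of gland epithelium, 8 were higher beyond 4-fold in the intracranial library (background 5.41%, summed 2591 and 22.6 CPM). Genes were tested with 10 or more counts in all, which many genes of both lists reached through their intracranial counts alone. These tallies therefore describe the listed genes and no more. Macrophage markers went the other way (summed 5853 and 12805.6 CPM). Of 10, 6 were beyond 2-fold higher in the extracranial library and 1, Cd163, beyond 2-fold lower (background 5.86% and 9.77%). Schwann cells are the cells a piece of nerve would hold. Of 10 Schwann cell markers, 6 were beyond 2-fold higher in the intracranial and 2 in the extracranial library (background 9.77% and 5.86%). Their sums of 236.5 and 242.5 CPM were carried by Pmp22 and Egr2, and the other 8 summed to 40.9 and 17.6 CPM. Sox10, their defining factor, had 43 and 0 counts, so it was tested through its intracranial counts alone. The part of nerve in these values was not tested.

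The Ifitm genes among the 10 differed widely in level. Ifitm3 and Ifitm2 were abundant in both libraries and Ifitm1 was lower. The 3 genes lie in 1 cluster on chromosome 7. Their promoters are shown, from RefSeq on build GRCm38.p6, which held windows of 300 bases for 7 of the 10 members. Each sequence runs 5′ to 3′ on the strand of its gene, from 250 bases before the annotated start to 30 after it. Capitals mark GAAA, any 2 bases and GAAA again, the core of the interferon-stimulated response element, which was the only motif searched, on both strands and with overlapping matches allowed. It was present in 1131 of 32851 RefSeq windows of 300 bases (3.44%).
Ifitm3 (chr7:141010715-141010994, minus strand): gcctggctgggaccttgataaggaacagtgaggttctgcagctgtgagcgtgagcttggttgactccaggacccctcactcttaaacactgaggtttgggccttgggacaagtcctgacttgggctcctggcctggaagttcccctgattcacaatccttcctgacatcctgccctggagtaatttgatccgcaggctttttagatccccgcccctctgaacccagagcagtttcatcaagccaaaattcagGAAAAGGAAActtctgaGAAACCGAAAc
Ifitm2 (chr7:140955932-140956211, minus strand): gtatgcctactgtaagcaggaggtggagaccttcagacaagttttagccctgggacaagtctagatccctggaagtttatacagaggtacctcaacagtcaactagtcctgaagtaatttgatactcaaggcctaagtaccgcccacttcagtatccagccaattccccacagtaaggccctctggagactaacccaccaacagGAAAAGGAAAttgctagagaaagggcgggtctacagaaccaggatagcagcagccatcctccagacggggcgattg
Ifitm1 (chr7:140967826-140968105, plus strand): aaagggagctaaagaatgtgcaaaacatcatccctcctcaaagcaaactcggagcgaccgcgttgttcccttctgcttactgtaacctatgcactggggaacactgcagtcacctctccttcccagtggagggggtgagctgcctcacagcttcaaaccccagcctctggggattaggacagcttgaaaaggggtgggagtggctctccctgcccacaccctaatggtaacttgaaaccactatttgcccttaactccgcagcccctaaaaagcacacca
Ifitm3 held 2 matches, which begin at bases 253 and 270 of the window and so lie just after the start. Ifitm2 held 1 match, at base 205, and the letters were not found in the window of Ifitm1 or in those of the 5 other members listed (Nanos3, Prdm1, Kit, Lin28a and Lin28b). Of 7 Ifitm genes with a window, 2 held a match. Of the interferon-stimulated genes described further on, 6 of the 9 with a window held a match, and Ifit2, Irf7 and Oasl2 held none. A match is a description of letters, and binding was not measured. Whether the letters bear on the levels was not tested.

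Of the 10 genes, 7 were above the floor in both libraries and 3 (Lin28a, Lin28b and Sall4) were at or under it in both. To compare levels between genes, CPM were divided by the kilobases of exon. Per kilobase, Ifitm3 was the highest in either library, at 613 CPM per kilobase (603 to 623) in the intracranial and 681 (669 to 693) in the extracranial library. Ifitm1 came next at 17.0 (15.7 to 18.3) and 5.47 (4.65 to 6.38), so that Ifitm3 exceeded it 36.1-fold and 124.6-fold per kilobase. The other 5 genes above the floor lay between 0.0711 and 3.81 CPM per kilobase.

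The order of the lower genes differed between the libraries. In the intracranial library Tfap2c (2.50 CPM per kilobase) was followed by Prdm1 (1.66), Nanos3 (1.18), Dppa3 (0.645) and Kit (0.329), and from Prdm1 to Kit each gene's interval overlapped that of the next. In the extracranial library Dppa3 (3.81) came after Ifitm1, with an interval that overlapped its own. Prdm1 (2.10), Nanos3 (0.647), Kit (0.600) and Tfap2c (0.0711) followed, and Nanos3 and Kit overlapped. The interval of Tfap2c reached below the upper limit of Lin28a, which had 0 counts there, although the 7 counts of Tfap2c were above the floor. Against Dppa3, the level per kilobase of Ifitm3 was 949.8-fold higher in the intracranial and 178.7-fold higher in the extracranial library.

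**Figure D1:**
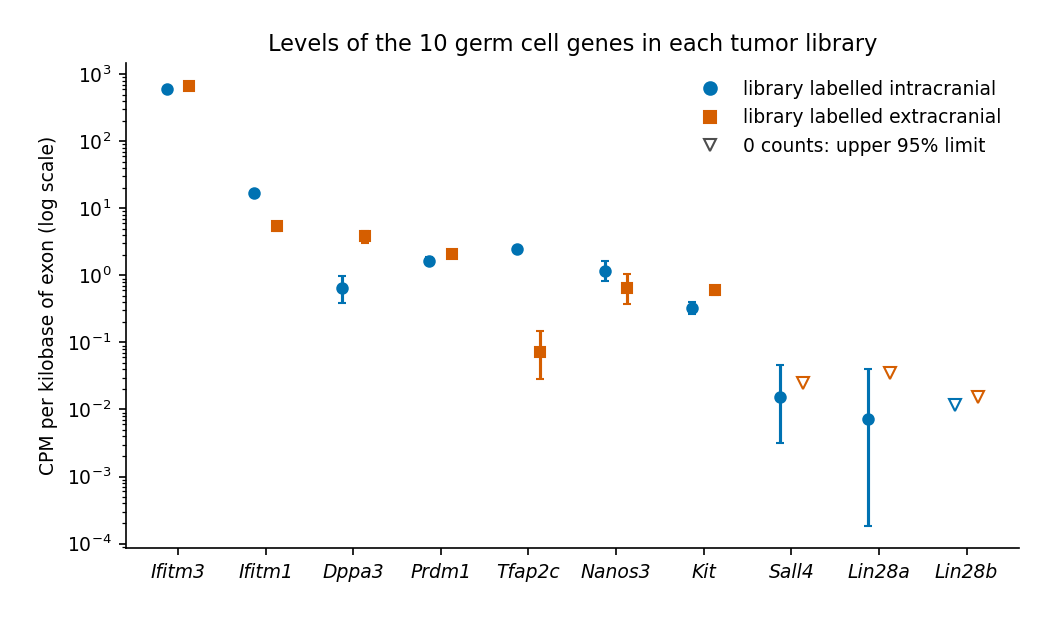
Levels of the 10 germ cell genes per library, in CPM per kilobase of exon on a log axis, with exact 95% counting intervals as bars (1 library per location). Ifitm3 lies near 613 and 681 CPM per kilobase, Dppa3 and Tfap2c change places between the libraries, and open triangles mark the upper limit of genes with 0 counts.

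Between the libraries, the ratio extracranial over intracranial was computed for genes with 10 or more counts in all, which 7 of the 10 passed. The whole 95% interval lay beyond 4-fold for 1 of these 7, Tfap2c, against 7.19% of the 21977 genes tested (5.41% toward the intracranial and 1.78% toward the extracranial library). It lay beyond 2-fold for 3 genes, Dppa3 toward the extracranial and Tfap2c and Ifitm1 toward the intracranial library, against a background of 15.6%. The interval left the equal ratio for 6 of 7 genes, 4 toward the extracranial and 2 toward the intracranial library, beside 61.4% of all genes tested. The log2 ratios ranged from -5.14 to 2.56 with a median of 0.15, beside -0.04 over all genes tested, of which 90% lay between -3.16 and 1.70. Tfap2c passed the minimum through its intracranial counts alone, so the counts and the median describe these 7 genes and no more. In bulk tissue, fewer cells of a type and less RNA per cell cannot be told apart.

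**Figure D2:**
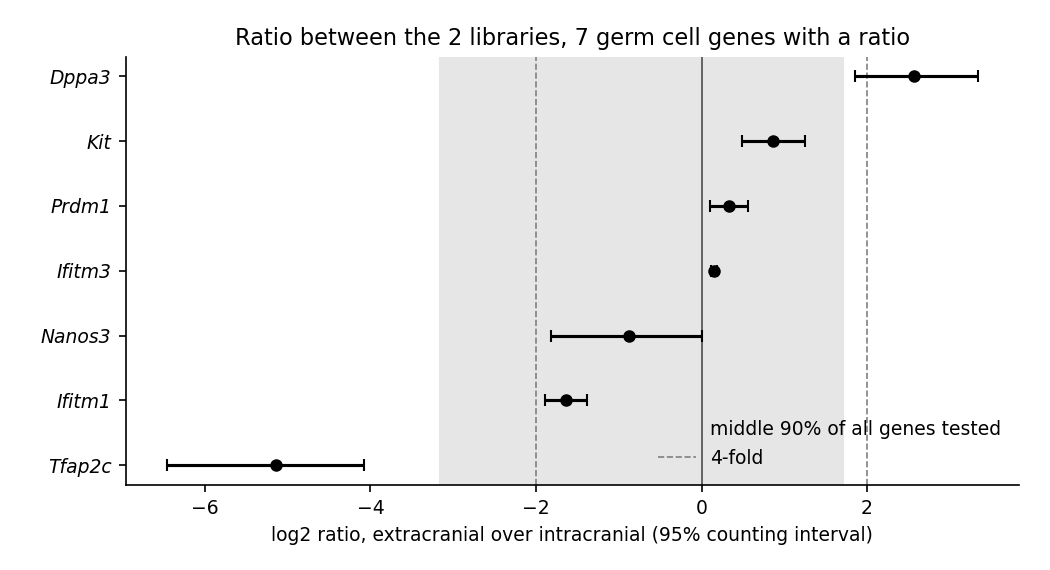
Log2 ratio extracranial over intracranial of the 7 genes with a ratio, with 95% counting intervals. Gray marks the range from -3.16 to 1.70 that holds the middle 90% of all genes tested. Dppa3 (2.56) lies to its right, Tfap2c (-5.14) to its left and the other 5 inside it.

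Dppa3 (ENSMUSG00000046323, chromosome 6), the gene whose locus carried the Cre, had 20 counts in the intracranial library, or 0.576 CPM (0.352 to 0.889). In the extracranial library it had 91 counts, or 3.40 CPM (2.74 to 4.18). The extracranial tumor was thus higher, 5.91-fold (3.61 to 10.1) or 2.56 on the log2 scale (1.85 to 3.34), with intervals of the levels that did not overlap. The ratio itself passed 4-fold but the lower end of its interval did not. Among the 24490 genes that passed the floor in 1 library or both, the levels lay at percentile 26.4 of CPM in the intracranial and 46.3 in the extracranial library.

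Near-identical copies could have taken or given reads of Dppa3. The transcribed pseudogene Dppa3-ps on chromosome X matches it at 98.2% over 451 bases and had 1 and 9 counts, and Gm15620 on chromosome 13 (96.6% over 116 bases) had 0 in both. Dppa3-ps had the direction of Dppa3. With the counts of these copies added, an alternative chosen after the data were seen, the log2 ratio of Dppa3 was 2.63 (1.94 to 3.38).

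Genes of the same stretch of chromosome 6 were next compared with Dppa3. Gdf3, a TGF-beta family ligand of pluripotent cells, had 147 and 456 counts (log2 ratio 2.01, 1.74 to 2.29) and Apobec1, an RNA-editing cytidine deaminase, had 1714 and 4444 (1.75, 1.67 to 1.83). Both were beyond 2-fold higher in the extracranial library, as was Dppa3 between them and Nanog. Nanog itself, the pluripotency factor and nearest protein-coding neighbor on the other side, had 1 and 2 counts. Slc2a3, a glucose transporter, was higher by 0.60 (0.35 to 0.84), whereas Mfap5, a microfibril protein, was lower there, with 462 and 178 counts (-0.999, -1.26 to -0.75).

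Over the list of 9 neighbors, 2 of the 7 tested were beyond 2-fold higher in the extracranial and 0 in the intracranial library (background 5.86% and 9.77%), with a median of 0.60. Foxj2 (0.12, -0.01 to 0.25) and Necap1 (0.19, 0.06 to 0.32) were close to equal. C3ar1, a complement receptor of myeloid cells that belongs to no list and was named after its values were seen, had 3297 and 7112 counts (1.49). Apobec1 and C3ar1 are expressed by macrophages, whose markers were higher in the same library (median 1.43 over 10). Their part in the ratios of this stretch was not tested.

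**Figure D3:**
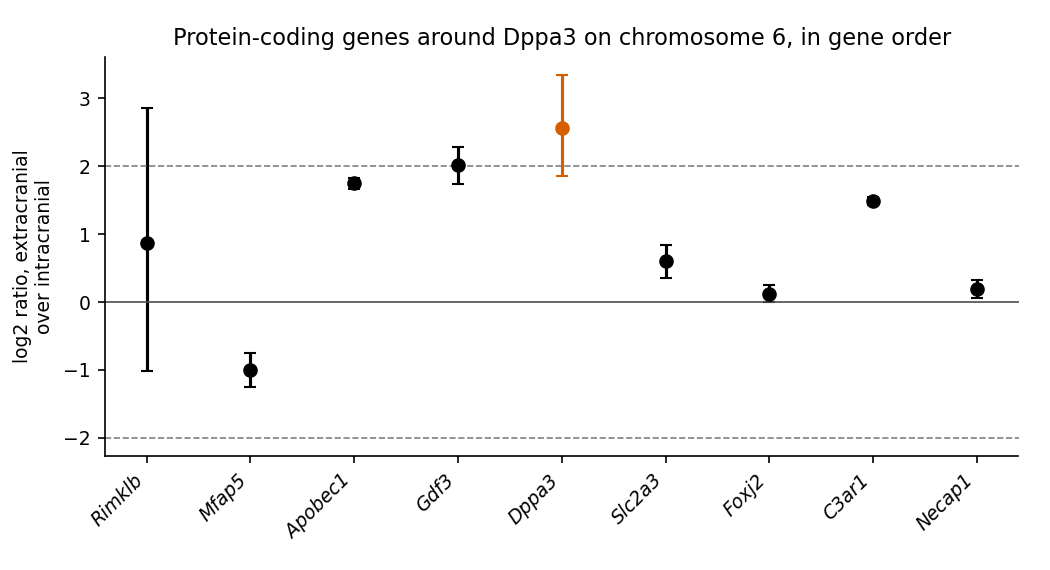
Log2 ratio extracranial over intracranial of Dppa3 (orange) and protein-coding genes around it that had 10 or more counts, in gene order and not to scale, with 95% counting intervals and dashed lines at 4-fold. Dppa3, Gdf3 and Apobec1 are the highest, at 2.56, 2.01 and 1.75.

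Differences in the DNA methylation machinery around Dppa3 were smaller than that of Dppa3 itself. Of 8 genes, 5 were higher in the extracranial and 2 in the intracranial library beyond counting error (background 29.2% and 32.2%), 0 were beyond 2-fold (background 15.6%) and the median log2 ratio was 0.17. Uhrf1, the partner of Dppa3, had 1210 and 1046 counts (0.17, 0.05 to 0.29), and the maintenance enzyme Dnmt1 was at 51.0 and 64.5 CPM (0.34). The de novo enzyme Dnmt3a (0.68, 0.54 to 0.82) was the highest in the extracranial library relative to the intracranial one. Tet1, a methylcytosine oxidase active in PGCs, was the lowest, with 133 and 63 counts (-0.70, -1.16 to -0.26).

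The protein-coding genes whose 2 levels lay nearest to those of Dppa3 on the log2(CPM + 1) scale were Fbp1, Scube3 and Il27. Fbp1, an enzyme of gluconeogenesis, had 22 and 88 counts (distance 0.0638). Scube3, a secreted protein, had 21 and 86 counts (0.0678), and Il27, a cytokine subunit, had 21 and 84 (0.0922). Altogether 39 genes had both levels inside the intervals of Dppa3, 29 of them protein-coding. With 2 libraries, such likeness rests on 2 values per gene.

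Tfap2c (ENSMUSG00000028640, chromosome 2), an AP-2 transcription factor of PGCs that is also expressed in placenta and surface epithelium, had the largest difference of the 10. It had 320 counts in the intracranial library, or 9.21 CPM (8.23 to 10.3), and 7 in the extracranial library, or 0.262 CPM (0.105 to 0.539). The level was 35.2-fold higher in the intracranial library (16.9 to 88.3), a log2 ratio of -5.14 (-6.46 to -4.08). The gene went from percentile 54.4 of CPM in the intracranial to 22.2 in the extracranial library.

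Other AP-2 genes were higher on the same side. Tfap2b, a factor of neural crest and kidney, had 219 and 3 counts (-5.81, -8.10 to -4.25). It was the 1 of 3 tested paralogs beyond 4-fold (background 7.19%). Tfap2a, a factor of neural crest and epidermis, had 460 and 170 (-1.06, -1.32 to -0.80). Tfap2e had 26 and 2 (-3.32, -6.44 to -1.33) and Tfap2d 0 in both. The median of the 3 tested was -3.32, the value of Tfap2e. Tfap2b and Tfap2e passed the minimum through their intracranial counts alone, so this median describes these genes and no more. The summed level of these paralogs was 20.3 CPM in the intracranial and 6.54 CPM in the extracranial library.

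The genes nearest to Tfap2c in both levels were Krt8, a keratin of simple epithelium (315 and 6 counts, distance 0.0480), Eps8l2, an actin regulator of epithelia (334 and 7, 0.0558), and Eya2, a transcriptional coactivator (335 and 7, 0.0597). Both levels lay inside the intervals of Tfap2c for 16 genes, all 16 protein-coding. Krt8 is also on the list of gland epithelium, of which Epcam had 938 and 1 counts and the adhesion protein Cdh1 1906 and 26. Over the 10 genes of that list the median log2 ratio was -5.79, and over the 10 of stratified epithelium -12.43. Many genes of both lists passed the minimum through their intracranial counts alone. Trp63, the defining factor of stratified epithelium, had 1284 and 0 counts. The part of epithelial tissue in the ratio of Tfap2c was not tested.

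Prdm1 (ENSMUSG00000038151, chromosome 10), the zinc finger repressor that starts PGC specification and also drives plasma cell differentiation, was nearly level between the tumors. It had 322 counts or 9.27 CPM (8.28 to 10.3) in the intracranial and 313 counts or 11.7 CPM (10.4 to 13.1) in the extracranial library, where it was 1.26-fold higher (log2 ratio 0.34, 0.11 to 0.56). Prdm1 and Tfap2c thus had nearly equal CPM in the intracranial library only, and in the extracranial library Prdm1 was above Tfap2c in CPM and per kilobase with intervals that did not overlap. Prdm14, the third factor of PGC specification, had 0 counts in both.

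Among 11 partners and targets of Prdm1, the median log2 ratio was 0.23 and 1 was beyond 4-fold (background 7.19%). This was Ciita, the master regulator of MHC class II genes and a target that Prdm1 represses, with 174 and 1363 counts (3.35, 3.12 to 3.58). Pax5, another repressed target, had 1 and 10 counts (3.70, 0.89 to 9.14), and Irf4, a factor of plasma cells and macrophages, 77 and 150 (1.34, 0.93 to 1.75). Prmt5, the arginine methyltransferase that works with Prdm1 in PGCs, was level at 43.2 and 42.8 CPM (-0.01, -0.13 to 0.10).

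Part of the B and plasma cell markers was higher in the same library as Ciita and Pax5. Of the 10 B and plasma cell markers 8 were tested, of which 4 were beyond 2-fold higher in the extracranial library (background 5.86%), with a median of 2.67 and a summed level of 181.1 CPM in the intracranial and 632.7 CPM in the extracranial library. Ighm, the heavy chain of IgM, had 458 and 8069 counts. Sdc1, a plasma cell marker that epithelium also expresses, had 5714 and 8148 counts (164.4 and 304.5 CPM) and gave much of both sums, whereas Jchain (32 and 40), Mzb1 (0 and 2) and Tnfrsf17 (3 and 18) were low. The B cell receptor chain Cd79a (19 and 15, 0.04, -1.04 to 1.09) was within counting error, and Pou2af1 had 5 and 3 counts. The part of B cells and macrophages in these values was not tested.

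Signals and other factors of PGC specification were also counted. Of 12 genes, 8 were tested, with a median of 0.22. Bmp4, the inducing signal, had 625 and 1029 counts (1.10, 0.95 to 1.24), and Bmp2 had 73 and 154 (1.45, 1.04 to 1.88). Bmp2 was the 1 gene of the list beyond 2-fold (background 15.6%). Wnt3, which makes the epiblast competent for BMP, had 0 in both, Tbxt, the mesoderm factor downstream of Wnt, 0 and 1, and Bmp8b 2 and 1. The BMP mediators Smad1 (-0.02) and Smad4 (0.07) were within counting error, and Acvr1, a BMP receptor, was at -0.37 (-0.46 to -0.28).

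Nanos3 (ENSMUSG00000056155, chromosome 8) was low in both tumors. It had 38 counts or 1.09 CPM (0.774 to 1.501) in the intracranial and 16 counts or 0.598 CPM (0.342 to 0.971) in the extracranial library. It was the 1 of the 7 genes whose ratio did not leave counting error, at -0.87 on the log2 scale (-1.81 to 0.01), so a difference was not detectable at this depth. With total count scaling the interval was -1.83 to -0.01 and did leave it. Its paralog Nanos1 had 53 and 89 counts (1.12, 0.62 to 1.64) and Nanos2, which acts in male germ cells, 0 in both. The RNA-binding partner Pum2 (0.07) and the deadenylase subunits Cnot1 (0.08) and Cnot8 (0.44) were between 43.6 and 135.3 CPM. Of the 6 genes of this list with a ratio, 0 were beyond 2-fold (background 15.6%), with a median of 0.07.

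Kit (ENSMUSG00000005672, chromosome 5), the receptor tyrosine kinase of PGCs, mast cells and melanocytes, had 102 counts or 2.94 CPM (2.39 to 3.56) in the intracranial library. In the extracranial library it had 143 counts or 5.34 CPM (4.50 to 6.29), 1.82-fold higher (log2 ratio 0.86, 0.49 to 1.25). Its ligand Kitl did not leave counting error, with 246 and 162 counts, or 7.08 and 6.05 CPM (-0.23, -0.52 to 0.07). Transcripts of receptor and ligand were therefore above the floor in both tumors.

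Markers of the somatic cells best known for Kit, mast cells and melanocytes, were low in sum and uneven. Of 10 mast cell markers, which summed to 5.76 and 0.448 CPM, the granule protease Cpa3 and the IgE receptor chain Fcer1a had 1 and 0 counts each and Ms4a2 4 and 1. Of the 3 with a ratio, Hdc, the histamine-forming enzyme, was higher in the intracranial library, unlike Kit, with 137 and 10 counts. It was at 3.94 CPM in the intracranial library, above the 2.94 CPM of Kit. The other 2, the near-identical genes Tpsb2 and Tpsab1, had 21 and 0 counts each. They passed the minimum through their intracranial counts alone, so their direction adds nothing. Of 8 melanocyte markers (1.76 and 0.934 CPM), Tyrp1 had 0 in both libraries, Mlana 1 and 0 and Tyr 0 and 1, and Pmel was the highest at 47 and 18. The part of mast cells and melanocytes in the level of Kit was not tested.

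Genes that act with and below Kit were mostly higher in the extracranial library. Of 13, Kitl included, 9 were higher there and 3 lower beyond counting error (background 29.2% and 32.2%). Beyond 2-fold 2 were higher and 0 lower (background 5.86% and 9.77%), and the median was 0.30. The 2 were Ptpn6, a phosphatase that limits Kit signaling (1797 and 4939 counts, 1.84, 1.76 to 1.91), and Lyn, a Src family kinase (2590 and 5769, 1.53, 1.47 to 1.60). Both are also abundant in macrophages, and Csf1r, the macrophage growth factor receptor, had 13206 and 35302 counts (1.80). The part of macrophages was not tested. Src was lower, at 62.8 and 32.3 CPM (-0.96, -1.07 to -0.84), and Mitf, a factor phosphorylated downstream of Kit, had 303 and 464 counts (0.99, 0.78 to 1.21).

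Lin28a, Lin28b and Sall4 were not detected above the floor. Lin28a (ENSMUSG00000050966, chromosome 4) had 1 count in the intracranial and 0 in the extracranial library, Lin28b (ENSMUSG00000063804, chromosome 10) had 0 in both, and Sall4 (ENSMUSG00000027547, chromosome 2) had 3 and 0. No ratio is given for them. At this depth a level of up to 0.106 CPM in the intracranial and 0.138 CPM in the extracranial library would still give 0 counts. They were not unusual in this, since 5385 of 21928 protein-coding genes (24.6%) were at or under the floor in both libraries. The antisense transcripts that overlap Lin28a (Gm13061) and Sall4 (Gm14261) had 0 counts in both.

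The other parts of the let-7 pathway were expressed. Of 7 processing genes, 0 were beyond 2-fold (background 15.6%) and the median was 0.04. Dicer1, which cuts the precursors, was at 35.02 and 41.4 CPM (0.24, 0.12 to 0.36), Tut4, which uridylates them when Lin28 is bound, at 25.9 and 24.0 (-0.11, -0.26 to 0.04), and the exporter Xpo5 at 56.4 and 45.8 (-0.30, -0.41 to -0.20). The microRNAs themselves were not measured by this poly(A) library.

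Known let-7 targets were higher in the extracranial library more often than lower. Of 12 tested, 8 were higher and 1 lower beyond counting error (background 29.2% and 32.2%). Beyond 2-fold 4 were higher and 0 lower (background 5.86% and 9.77%), and the median log2 ratio was 1.04. Hmga2, a chromatin protein of embryonic tissue, had 910 and 2857 counts (2.03, 1.92 to 2.14), and the mRNA-binding protein Igf2bp2 had 82 and 503 (2.99, 2.65 to 3.35). Igf2bp2 was the 1 target beyond 4-fold (background 7.19%). Ccnd2, a G1 cyclin, was at 137.7 and 346.9 CPM (1.33) and Hmga1 at 149.9 and 342.0 CPM (1.19). Trim71, an embryonic RNA-binding protein, had 11 and 32 counts (1.92, 0.89 to 3.05), whereas the embryonic paralogs Igf2bp1 (6 and 2) and Igf2bp3 (12 and 19) and the transcription factor Mycn (10 and 4) were within counting error.

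Partners of Sall4 were present without it. Of its paralogs, Sall2 had 696 and 720 counts (0.43, 0.27 to 0.58), Sall1 3 and 0 and Sall3 0 in both. The NuRD subunits through which Sall proteins repress genes were between 25.5 and 189.0 CPM, led by the remodeler Chd4 (145.2 and 189.0 CPM) and the histone-binding protein Rbbp4 (159.2 and 135.6 CPM). None of these subunits was beyond 2-fold (background 15.6%). Zbtb16 (Plzf), a factor of spermatogonia that Sall4 binds, had 359 and 18 counts (-3.94, -4.71 to -3.26). It was the 1 of 13 genes beyond 4-fold (background 7.19%). The median over the 13 was 0.00.

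Ifitm3 (ENSMUSG00000025492, chromosome 7), known in PGCs as fragilis and elsewhere as an antiviral protein, had 14439 counts or 415.5 CPM (408.8 to 422.4) in the intracranial library. In the extracranial library it had 12357 counts or 461.8 CPM (453.7 to 470.0), 1.11-fold higher (log2 ratio 0.15, 0.12 to 0.19). It stood at percentile 98.6 and 98.7 of CPM, and it held most of the summed level of the 10 genes, which was 457.3 CPM in the intracranial and 489.1 CPM in the extracranial library. The level of Ifitm3 was high and nearly even, unlike those of Dppa3 and Tfap2c.

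Ifitm1 (ENSMUSG00000025491, chromosome 7) was higher in the intracranial library. It had 645 counts or 18.6 CPM (17.2 to 20.1) there and 160 counts or 5.98 CPM (5.09 to 6.98) in the extracranial library, a 3.10-fold difference (2.61 to 3.71) or -1.63 on the log2 scale (-1.89 to -1.38). The processed pseudogene Gm7676 on chromosome 8 matches Ifitm1 at 97.5% over 319 bases and had 147 and 123 counts (0.12, -0.24 to 0.48). With its counts added, again chosen after the data were seen, the log2 ratio of Ifitm1 was -1.11 (-1.31 to -0.91), and the interval no longer lay beyond 2-fold. The epithelial markers described above were higher in the same library, and their part in the level of Ifitm1 was not tested.

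The rest of the family followed neither gene alone. Ifitm2, which shares antiviral activity with Ifitm3, was level, with 6878 and 5231 counts (-0.02, -0.07 to 0.03) and 302 and 298 CPM per kilobase. Ifitm5, a bone protein, had 61 and 53 counts, Ifitm6 27 and 34, and both were within counting error. Ifitm10 had 53 and 10 counts (-2.03, -3.17 to -1.04) and Ifitm7 had 1 and 2. Of the 4 other family genes tested, Ifitm10 was the 1 beyond 2-fold (background 15.6%). The median over the 4 was 0.08.

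Interferon-stimulated genes gave the background for Ifitm1 and Ifitm3. Of 13, 8 were higher in the extracranial and 2 in the intracranial library beyond counting error (background 29.2% and 32.2%), and the median was 0.14, close to the 0.15 of Ifitm3. Isg15, a ubiquitin-like protein, was at 68.6 and 75.6 CPM (0.14, 0.05 to 0.22) and Bst2, a membrane tether of viruses, at 167.3 and 166.8 (interval of the log2 ratio -0.06 to 0.05). Mx1, an antiviral GTPase, was the 1 gene beyond 2-fold (background 15.6%), with 774 and 1396 counts (1.23, 1.10 to 1.36). Ifit1, an RNA-binding antiviral protein, went the other way with 7036 and 2664 (-1.02, -1.09 to -0.96). The summed level was 953.5 CPM in the intracranial and 1027 CPM in the extracranial library.

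Of 16 genes shared by PGCs and pluripotent cells, 8 were at or under the floor in both libraries, beside 24.6% of protein-coding genes. Among them were Pou5f1, Zfp42, Dppa4 and Fgf4 with 0 counts in both. Of the 7 tested, Lefty1, a Nodal antagonist, was beyond 4-fold higher in the extracranial library, with 55 and 479 counts (3.50, 3.09 to 3.93). Klf5, which is also a factor of epithelium, was beyond 4-fold higher in the intracranial library, with 1965 and 8 (-7.56, -8.78 to -6.58). Klf2, a factor shared with endothelium, was at 1.24 (1.13 to 1.35), Klf4 at -1.01 (-1.07 to -0.95) and Sox2, with 377 and 134 counts, at -1.12 (-1.41 to -0.83). The background beyond 4-fold was 1.78% toward the extracranial and 5.41% toward the intracranial library. The median over the 7 tested was 0.64.

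Genes of later germ cells were low in both tumors, with a summed level of 5.30 CPM in the intracranial and 5.98 CPM in the extracranial library over 15 genes. Nanos2, Mael, Figla and Tex19.1 had 0 counts in both. Ddx4 (Vasa), a helicase of the germ line, had 5 and 21 counts (2.45, 1.001 to 4.21). It was the 1 of 7 tested genes beyond 2-fold (background 15.6%). That call was lost with total count scaling (0.98 to 4.19) and with TMM without genes beyond 100-fold. Dazl, an RNA-binding protein of gonadal germ cells, had 8 and 14 (1.18, -0.17 to 2.64), Dnd1 48 and 34 and Piwil2 82 and 74, all within counting error. The median over the 7 was -0.12.

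Of the remaining markers, T cell genes had a median of 0.97 with summed levels of 21.7 and 46.1 CPM, endothelial genes one of 1.05 with 228.0 and 392.8 CPM, and erythroid genes one of 1.32 with 119.2 and 139.1 CPM. All these medians were on the extracranial side, but the T cell and erythroid genes were split. Of 10 T cell genes, 5 were higher and 2 lower in the extracranial library beyond counting error, and 3 were within it. Of 7 erythroid genes tested, 4 were higher and 1 lower there beyond counting error (background 29.2% and 32.2%).

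**Figure D4:**
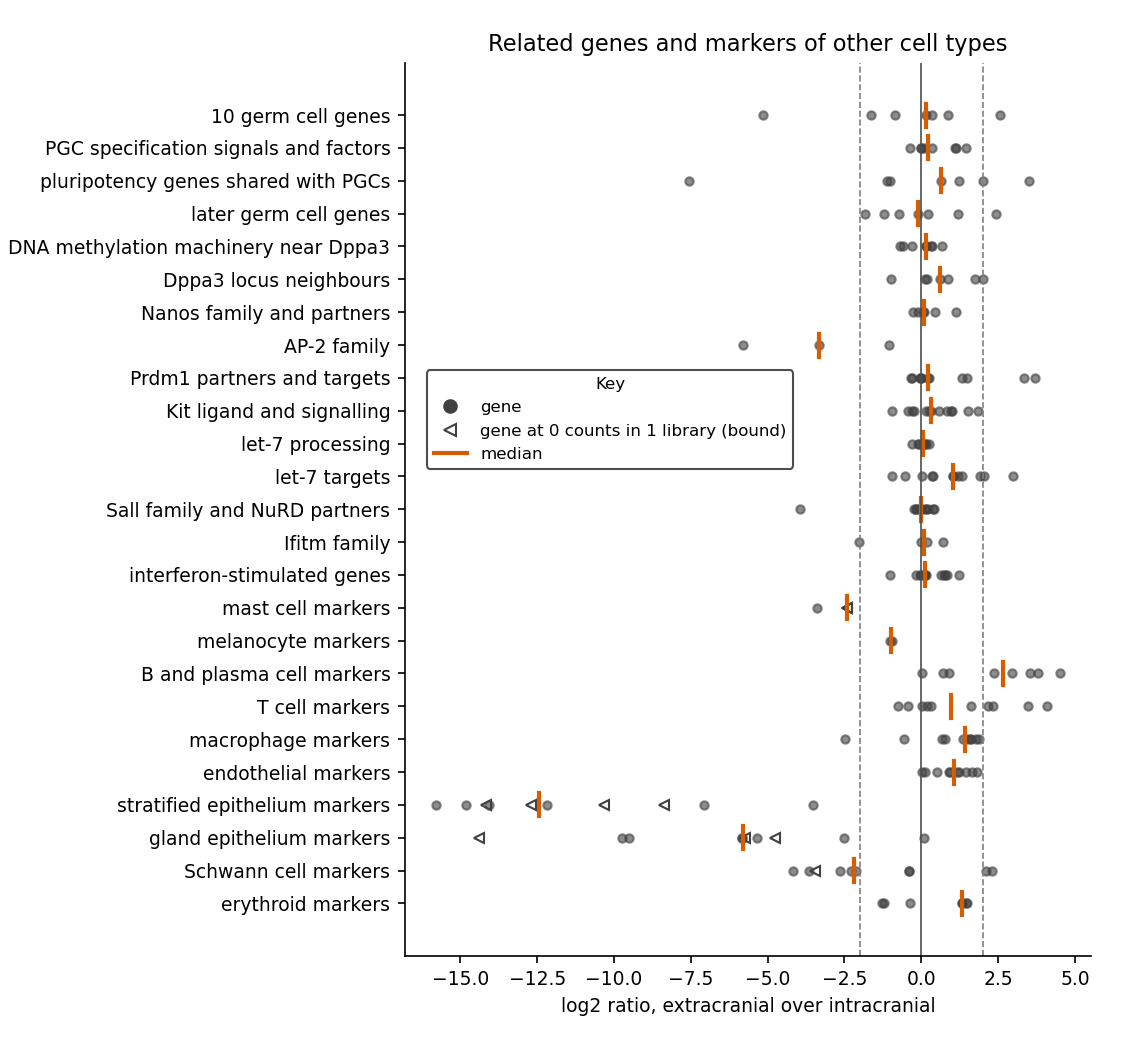
Log2 ratio extracranial over intracranial by list, with gray points for the genes tested, an orange bar for the median and dashed lines at 4-fold. Triangles are bounds for genes at 0 counts in 1 library. Medians of the germ cell lists lie within 2-fold of equal. AP-2 genes (-3.32) and both epithelial lists (-12.43 and -5.79) lie far to the intracranial side. Many genes of these lists passed the minimum through their intracranial counts alone. Mast cell (-2.43) and Schwann cell (-2.20) markers lie on the intracranial side too, and B and plasma cell markers (2.67) on the extracranial side.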

How the data were processed

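Bulk RNA-seq data of 2 tumors were used, grouped by the localization label, with 1 library per location. The deposited table holds raw read counts per Ensembl gene. To make these counts the authors isolated total RNA from fresh-frozen tumor, selected poly(A) RNA, prepared directional libraries with single reads of 72 cycles, aligned them with STAR 2.7.9a (GRCm39, Ensembl 104) and counted with featureCounts. FastQC 0.11.9 and MultiQC 1.11 are named in the processing notes of the submitters. How strand and multi-mapping reads were treated is not given in the sources used here, so counts of near-identical, overlapping and antisense genes are uncertain.

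Symbols, exon lengths and gene order came from GENCODE release 21 on GRCm38, older than the annotation of the authors, and 52083 of 55416 IDs (93.99%) were matched. IDs without a symbol held 0.760% of intracranial and 1.04% of extracranial counts and stayed in library sizes. Scaling used the TMM of edgeR 4.0.16 in R 4.3.3 (factors 1.006 and 0.994). The quasi-likelihood test of edgeR needs replicates and could not be fitted, so there is no p-value. Ratios carry conditional exact binomial 95% intervals for genes with 10 or more counts over both libraries. Calls required the entire interval to be beyond 4-fold. A count of 0 was set to the floor of 3 counts, and no ratio is given where neither library exceeds 3. Reads carried no molecular identifiers and can repeat 1 molecule, so that intervals and floors cover counting error only. Copies were transcripts of other genes with at least 95% identity over at least 72 bases.

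The 10 genes, the 24 lists and the markers were chosen with earlier results of these data known. Named genes are the 10, list genes and the 3 protein-coding genes nearest to Dppa3 and to Tfap2c in log2(CPM + 1). Dnd1, Gdf3, Hdac1, Hdac2, Nanog and Nanos2 are on 2 lists each. Some items of the lists are counted but not reported by name here. Scripts were tested on simulated data. Alternatives comprised DESeq2 1.42.0 size factors, total count and upper quartile scaling, TMM without genes beyond 100-fold, other count filters, 2-fold and ratio-only limits, protein-coding genes only, and a prior count of 2.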

Additional observations from a re-analysis of the deposited data

How the results depend on the processing

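The log2 ratios of the 7 genes kept their direction and their side of 4-fold under all 37 alternatives tried, of which 35 were planned. The interval of Nanos3 excluded the equal ratio only with total count scaling (-1.83 to -0.01). Ddx4 lost its 2-fold call with total count scaling and with TMM without genes beyond 100-fold. Under some scalings the list genes Cnot1, Ifit3, Mta3, Pum2, Tdrd5, Tut7, Usp18 and Zap70 came within counting error. Dis3l2, Foxj2, Gatad2a and Jchain left it under some, and Vwf gained a 2-fold call. Tallies of their lists shift with these genes. Dppa3 ranged from 2.46 to 2.63, Tfap2c from -5.15 to -4.78 and Ifitm1 from -1.65 to -1.11, the last with the copy added. Percentiles depended on the genes they were taken over: among protein-coding genes Dppa3 lay at 13.9 in the intracranial and 31.5 in the extracranial library, and per kilobase of exon at 33.6 and 62.3. Other scalings shifted every ratio by -0.02 to 0.04. Requiring an interval beyond 2-fold gave 3 of the 10 genes and 3434 genes in all, and a ratio past 4-fold, whatever its interval, gave 2 (Dppa3 and Tfap2c) and 2752 in all, against 1 and 1581 with the interval beyond 4-fold. The 7 other alternatives for these counts gave 1 gene of the 10 and between 1155 and 1586 in all. Among 780 alternatives for other listed genes, 4 lost the 4-fold call (Tpsb2 and Tpsab1), 1 gained it (Krt7) and 0 reversed. No paired analysis was possible because there was only 1 library for each location, and leaving out a replicate was not possible for the same reason. Depth limits the low genes, with 7 extracranial counts for Tfap2c, 16 for Nanos3 and 20 intracranial counts for Dppa3, and the 3 genes at the floor.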
